A study of Mus musculus with 10 samples.

Results

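The genes described here are genes of the lens fibre cell, and all but Grifin and Birc7 encode proteins of its membrane or skeleton. They are 9 genes chosen by name (Mip, Gja3, Lim2, Bfsp1, Bfsp2, Nrcam, Grifin, Lctl and Birc7), out of 19938 genes measured, and each was read by 1 probe set of a whole-transcript array. They were compared between lenses of mouse embryos at embryonic day E13.5 in which the gene for Dicer was or was not targeted for deletion. Dicer is an enzyme needed to make most mature microRNAs from their precursors. DicerCN embryos had the genotype Le-Cre+/-;DicerloxP/loxP, and control embryos had Le-Cre-/-;DicerloxP/loxP, so both groups carried the loxP-flanked Dicer alleles and the controls lacked Cre. In Le-Cre mice the P0 promoter of Pax6 drives Cre in the surface ectoderm that forms the lens and corneal epithelium. Each group had 5 arrays, and each array carried the pooled lens pair of 1 embryo. The labels also call the controls wild type and name no strain.

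Lens fibres form when epithelial cells leave the cell cycle, elongate and fill the lens, and they later lose their nuclei and organelles. Their membranes are filled with the water channel and adhesion protein Mip, with connexin gap junctions and with the tetraspan protein Lim2. Under the membrane lies a skeleton of spectrin and actin together with beaded filaments, an intermediate filament type found in lens fibres that is assembled from Bfsp1 and Bfsp2. Mutations of Mip, Gja3, Lim2, Bfsp1 and Bfsp2 cause cataract.

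All 9 genes had lower means in DicerCN than in control lenses, as did 10036 of all 19938 genes. For Gja3 and Bfsp2 that sign turned under some of the other ways of processing given below. Of the 9, 4 fell: the adhesion protein gene Nrcam, the lens galectin gene Grifin, the klotho-family gene Lctl and the apoptosis inhibitor gene Birc7. Their signals were 1.61-fold, 1.56-fold, 1.51-fold and 1.50-fold lower. Lctl in all 10 lenses and Birc7 in the 5 DicerCN lenses lay below the array medians, where array signals can understate a fold, so the sizes are not compared between the 4 genes. Over all 19938 genes, 3.97% fell in DicerCN lenses and 2.56% rose. A gene counted as changed when its adjusted p was under 0.05 in limma, a linear model that pools the spread over genes, with Benjamini-Hochberg adjustment over all genes. In the same 4 genes every DicerCN lens was below every control lens, a pattern seen in 4.42% of all genes. None of the 9 rose, and in 0 of 9 was every DicerCN lens above every control lens, against 2.96% of all genes. In either direction, 6.54% of all genes changed. In lens tissue as a whole, fewer fibre cells and less RNA per fibre cell cannot be told apart. The 5 genes of junctions, water channel and beaded filament (Mip, Gja3, Lim2, Bfsp1 and Bfsp2) did not pass the test.

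The promoters of the 4 genes that fell are shown beside that of Mip, which did not pass the test. The sequences are RefSeq windows of GRCm38.p6 from 250 bases before to 50 bases after the annotated gene start, 5′ to 3′ on the gene's strand. Capitals mark TGCTGA or its reverse complement TCAGCA, the core of the sites bound by Maf proteins, which include the lens fibre regulator c-Maf.
Lctl (chr9:64116897-64117196, plus strand): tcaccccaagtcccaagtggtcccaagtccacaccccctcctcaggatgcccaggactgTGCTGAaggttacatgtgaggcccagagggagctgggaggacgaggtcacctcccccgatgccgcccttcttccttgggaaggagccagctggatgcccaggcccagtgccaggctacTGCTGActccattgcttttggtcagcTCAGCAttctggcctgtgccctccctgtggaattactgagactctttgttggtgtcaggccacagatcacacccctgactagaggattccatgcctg
Birc7 (chr2:180928773-180929072, plus strand): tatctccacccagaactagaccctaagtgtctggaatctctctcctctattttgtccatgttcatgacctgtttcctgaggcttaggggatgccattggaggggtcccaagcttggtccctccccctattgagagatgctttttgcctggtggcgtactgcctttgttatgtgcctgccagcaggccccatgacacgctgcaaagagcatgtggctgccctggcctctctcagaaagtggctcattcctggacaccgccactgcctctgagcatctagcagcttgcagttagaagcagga
Grifin (chr5:140565018-140565317, minus strand): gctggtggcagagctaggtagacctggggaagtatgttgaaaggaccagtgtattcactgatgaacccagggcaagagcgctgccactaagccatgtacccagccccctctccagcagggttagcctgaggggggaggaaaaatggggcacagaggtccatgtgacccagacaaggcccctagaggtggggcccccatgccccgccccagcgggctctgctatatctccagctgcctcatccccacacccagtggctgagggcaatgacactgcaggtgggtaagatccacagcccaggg
Nrcam (chr12:44328635-44328934, plus strand): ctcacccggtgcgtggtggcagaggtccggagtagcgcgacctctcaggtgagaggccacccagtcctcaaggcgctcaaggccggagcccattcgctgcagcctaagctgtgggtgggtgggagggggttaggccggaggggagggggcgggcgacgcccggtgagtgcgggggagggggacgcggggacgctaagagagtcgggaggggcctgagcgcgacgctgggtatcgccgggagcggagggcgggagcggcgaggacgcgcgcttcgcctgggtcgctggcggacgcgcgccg
Mip (chr10:128225560-128225859, plus strand): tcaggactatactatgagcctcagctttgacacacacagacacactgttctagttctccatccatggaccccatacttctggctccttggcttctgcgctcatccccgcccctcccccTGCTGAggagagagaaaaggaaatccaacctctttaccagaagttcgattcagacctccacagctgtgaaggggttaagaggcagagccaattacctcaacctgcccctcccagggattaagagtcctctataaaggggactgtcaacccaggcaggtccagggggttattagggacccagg
The Lctl window held 3 such cores, which begin at positions −191, −73 and −47 relative to the start, and the windows of Birc7, Grifin and Nrcam held 0. The Mip window held 1, as did those of Lim2 and Bfsp1, so that 4 of the 9 genes had at least 1. Searched on both strands, the core occurred in 19.5% of all 32851 windows of this length. TAATCC, a core bound by Pitx proteins, lay in the Mip window and in that of none of the other 8 genes, against 7.06% of all windows. The heat shock element core GAANNTTC was in the window of 0 of the 9 genes, against 7.86% of all windows. None of these motifs shares letters with another in the same window. A match is a description of letters and not of a bound site.

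Dicer1 signal averaged 10.3 ± 0.11 in DicerCN and 10.2 ± 0.13 in control lenses (log2, SD, n = 5 each) and did not pass the test (limma adjusted p = 0.472). The probe set may lie outside the flanked exons, which the labels do not name, so it does not check the labels. Array medians ran from 6.54 to 6.56 on the log2 scale, so arrays scaled in this way cannot show whether a lens held less RNA in total. The fibre crystallins Cryba1, Crybb1 and Crybb3 were above 13 on every array and did not pass the test, while the crystallins Cryba4 and Crygs fell. Each marker list was scored as the mean log2 signal of its genes minus the control mean. Lens fibre scores ran from −1.03 to −0.27 in DicerCN lenses and from −0.21 to 0.13 in control lenses. All 9 lens fibre markers had lower means in DicerCN lenses and 2 fell, with a median change of −0.24. Mip, Lim2, Bfsp1 and Bfsp2 are in this list too, and Crygs weighs heavily in its score. Neural retina scores were −0.36, 0.35, 0.23, 0.95 and 2.004 in DicerCN lenses 1 to 5, against −0.34 to 0.46 in control lenses. All 10 measured retina markers had higher means in DicerCN lenses, and 0 passed the test. Pigment epithelium scores ran from 0.00 to 1.61 in DicerCN lenses and from −0.17 to 0.20 in control lenses. All 7 pigment epithelium markers had higher means in DicerCN lenses, and 0 passed the test. Macrophage scores ran from 0.10 to 0.99 in DicerCN lenses and from −0.32 to 0.36 in control lenses. Of 12 macrophage markers, 11 had higher means in DicerCN lenses, and 1, Csf1r, was higher by the test. The score of 8 lens epithelium markers overlapped between the groups (−0.32 to 0.06 in DicerCN lenses, −0.16 to 0.13 in control lenses), but 2 of the 8 fell with no overlap between the groups. These were the E-cadherin gene Cdh1, by 0.79 (limma adjusted p = 0.00665), and the growth factor receptor gene Pdgfra, by 0.58 (adjusted p = 0.0423). Vessel scores overlapped as well. The striated muscle score of control lens 4 was 2.57, and those of all other lenses were below 0.

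**Figure D1:**
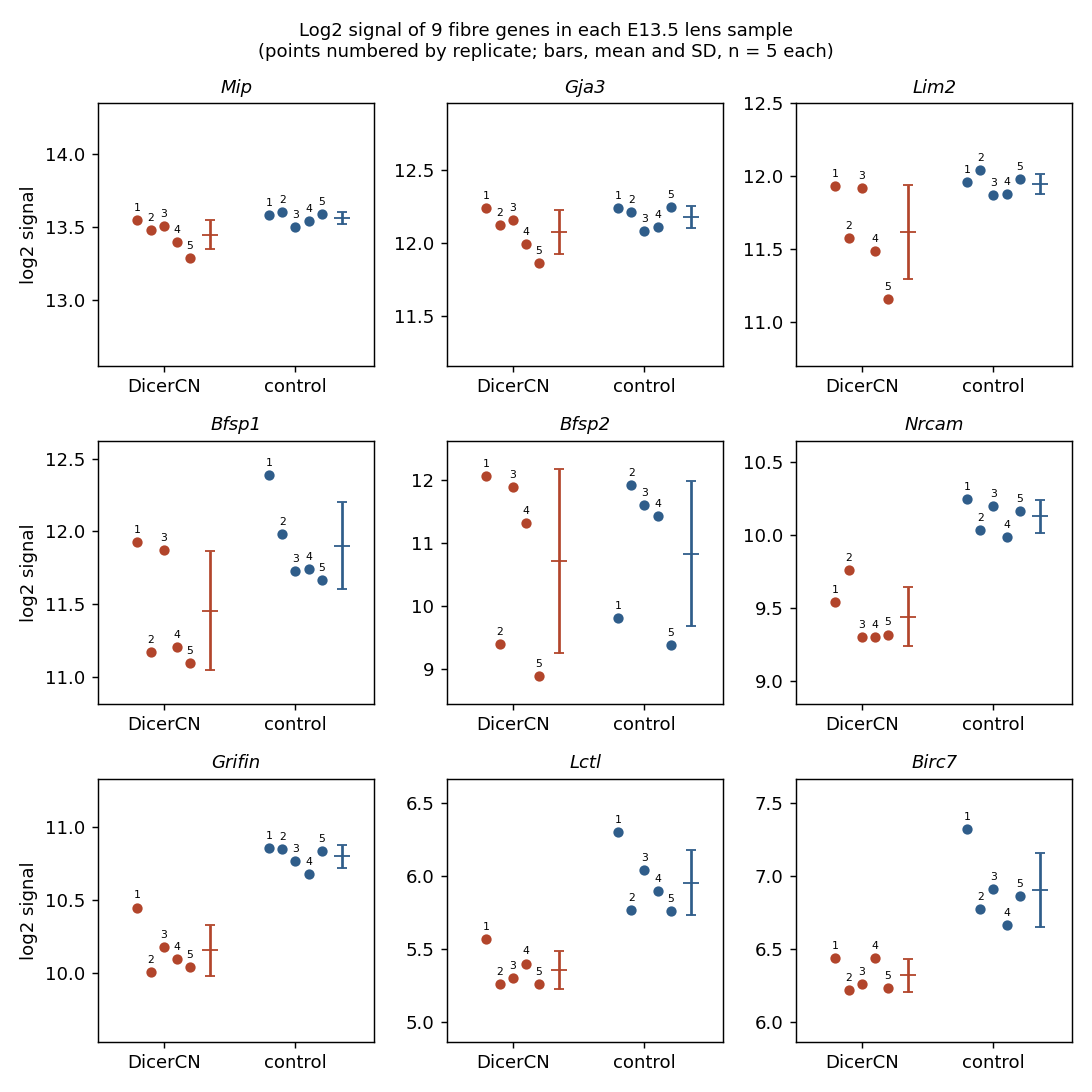
Log2 signal of the 9 fibre genes (y axis, each panel with its own origin) in 5 DicerCN and 5 control lens samples, with points numbered by replicate and bars for mean and SD. In Nrcam, Grifin, Lctl and Birc7 the DicerCN points lie below all control points, in Bfsp2 both groups hold lenses near 9 and near 12 with a gap between them, and in the other 4 panels the groups overlap.

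Nrcam encodes a cell adhesion molecule of the immunoglobulin family whose cytoplasmic tail binds ankyrin, and mice without it develop cataract. Its log2 signals were 9.54, 9.76, 9.30, 9.30 and 9.32 in DicerCN lenses 1 to 5, against 10.25, 10.04, 10.20, 9.99 and 10.17 in control lenses 1 to 5. The groups were parted by 0.23, between DicerCN lens 2 and control lens 4. Nrcam fell by 0.69 (SE 0.10, 95% confidence interval −0.91 to −0.47, exact permutation p = 0.00794, limma adjusted p = 0.00171). That permutation p is the smallest the 252 ways of parting 10 arrays can give.

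Grifin encodes a galectin-related protein found in lens fibres that in rodents lacks affinity for the sugars galectins bind. DicerCN lenses 1 to 5 had log2 signals of 10.45, 10.01, 10.18, 10.10 and 10.04, and control lenses 1 to 5 had 10.86, 10.85, 10.77, 10.68 and 10.84. The control lenses were close to each other (SD 0.08), and the highest DicerCN lens stood 0.23 below the lowest of them. Grifin fell by 0.64 (SE 0.09, interval −0.84 to −0.45, exact permutation p = 0.00794, limma adjusted p = 0.00126).

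Lctl encodes a membrane protein of the klotho family that mice need for orderly lens sutures. The signals were low: 5.57, 5.26, 5.30, 5.40 and 5.26 in DicerCN lenses 1 to 5, and 6.30, 5.77, 6.04, 5.90 and 5.76 in control lenses 1 to 5. Lctl fell by 0.60 (SE 0.11, interval −0.83 to −0.36, exact permutation p = 0.00794, limma adjusted p = 0.00621), with a gap of 0.19 between the groups. Kl and Klb, the other klotho genes and co-receptors for endocrine fibroblast growth factors, had changes of 0.06 and 0.07 and did not pass the test. Their signals (4.55 to 4.98 and 4.94 to 5.31) lay below the array medians in all lenses, so little can be read from this.

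Birc7 encodes livin, an inhibitor of apoptosis protein that rises late in fibre differentiation. Its log2 signals were 6.44, 6.22, 6.26, 6.44 and 6.23 in DicerCN lenses 1 to 5, against 7.32, 6.77, 6.91, 6.66 and 6.86 in control lenses 1 to 5. Control lens 1 was the highest of all, as it was for Lctl. Birc7 fell by 0.59 (SE 0.11, interval −0.84 to −0.34, exact permutation p = 0.00794, limma adjusted p = 0.00932). Adjusted for the macrophage score, Nrcam, Lctl and Birc7 stood at −0.55, −0.66 and −0.55 and lost their calls (adjusted p = 0.0659, 0.0594 and 0.134), while Grifin passed (0.0169). The calls of the 4 genes held in each of the other 21 alternatives, retina score included.

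Mip encodes the most abundant membrane protein of fibres, a water channel of the aquaporin family that also joins fibres to each other. Its log2 signals were 13.55, 13.48, 13.51, 13.40 and 13.29 in DicerCN lenses 1 to 5 and 13.58, 13.60, 13.5004, 13.54 and 13.59 in control lenses 1 to 5. DicerCN lenses 2, 4 and 5 were below all controls, and lenses 1 and 3 lay within the control range. The change was −0.12 (SE 0.07, interval −0.27 to 0.04, exact permutation p = 0.0397, limma adjusted p = 0.435). It was −0.05 when adjusted for the retina score and −0.06 for the pigment epithelium score.

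Gja3 encodes a connexin of the gap junctions that couple fibres to each other. It had log2 signals of 12.24, 12.12, 12.16, 11.99 and 11.86 in DicerCN lenses 1 to 5, and 12.24, 12.21, 12.08, 12.11 and 12.25 in control lenses 1 to 5. Only DicerCN lenses 4 and 5 were below all controls. The change was −0.10 (SE 0.08, interval −0.28 to 0.08, exact permutation p = 0.222, limma adjusted p = 0.593), and it turned to 0.02 after quantile normalization. Without DicerCN lens 5 it was −0.05, and adjusted for the retina and pigment epithelium scores it was −0.0091 and −0.02. Gja1, the connexin of the lens epithelium, had a change of 0.26 (SE 0.29, adjusted p = 0.720), which turned below 0 with the retina, macrophage or pigment epithelium score as a covariate. Of 13 connexin genes other than Gja3, 0 passed the test, but several of them had signals below the array medians in all lenses.

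Lim2 encodes a tetraspan membrane protein of fibre junctions. Log2 signals in DicerCN lenses 1 to 5 were 11.93, 11.58, 11.92, 11.49 and 11.16, against 11.96, 12.04, 11.87, 11.88 and 11.98 in control lenses 1 to 5. Lenses 1 and 3 of the DicerCN group were at control level, and the other 3 were below every control. The SD was 0.32 in DicerCN lenses and 0.07 in control lenses. The change was −0.33 (SE 0.13, interval −0.62 to −0.04, exact permutation p = 0.0714, limma adjusted p = 0.189). With the vessel score as a covariate, an alternative added after the data were seen, it was −0.45 and passed (adjusted p = 0.0433), and with the retina score it was −0.15 (adjusted p = 0.545). Without DicerCN lens 5 it was −0.22, after quantile normalization −0.22, and adjusted for the pigment epithelium and macrophage scores −0.18 and −0.55.

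Bfsp1 encodes filensin, the larger of the 2 beaded filament proteins. Its log2 signals were 11.93, 11.17, 11.87, 11.21 and 11.10 in DicerCN lenses 1 to 5, and 12.39, 11.98, 11.73, 11.74 and 11.67 in control lenses 1 to 5. Again DicerCN lenses 1 and 3 lay within the control range and lenses 2, 4 and 5 below it. The change was −0.45 (SE 0.19, interval −0.86 to −0.04, exact permutation p = 0.103, limma adjusted p = 0.218). Adjusted for the retina and macrophage scores it was −0.27 and −0.75, and neither passed.

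Bfsp2 encodes phakinin, the partner of filensin in the beaded filament, and its signal fell into 2 separate ranges that cut across the genotypes. In DicerCN lenses 1 to 5 it was 12.06, 9.40, 11.89, 11.32 and 8.88, and in control lenses 1 to 5 it was 9.81, 11.92, 11.60, 11.43 and 9.38. Thus 4 lenses, 2 of each group, lay between 8.88 and 9.81, and 6 lay between 11.32 and 12.06. The gap between the ranges was 1.52, which is 2.86-fold. Between the groups the change was −0.12 (SE 0.67, interval −1.56 to 1.33, exact permutation p = 0.810, limma adjusted p = 0.956), so a change of either sign up to about the width of the gap was not detectable. Its sign turned under 8 of 22 alternatives, and adjusted for the macrophage score the change was −2.09 (adjusted p = 0.0324), and for the vessel score −0.97 (adjusted p = 0.0657). Some inbred mouse strains carry a natural deletion in Bfsp2. Alleles of Bfsp2 were not measured here, and the part of any allele in these values was not tested.

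Filensin and phakinin transcripts did not follow each other in every lens. Bfsp1 was highest of all in control lens 1, where Bfsp2 was low, and in DicerCN lens 4 Bfsp1 was low and Bfsp2 was high. Vessel and macrophage markers, singled out after their values were seen, moved with Bfsp2. All 6 vessel markers had higher means in DicerCN lenses and 0 passed the test. Vessel scores were 0.63, −0.11, 0.88, 0.47 and −0.41 in DicerCN lenses 1 to 5 and −0.32, 0.10, 0.33, 0.13 and −0.24 in control lenses 1 to 5. The lenses with low Bfsp2 were thus the lenses with vessel scores below 0. Macrophage scores were 0.85, 0.10, 0.99, 0.60 and 0.20 in DicerCN lenses 1 to 5 and −0.18, 0.05, 0.09, 0.36 and −0.32 in control lenses 1 to 5, so that the same lenses were the lowest of their group. The part of vessel or macrophage RNA in this result was not tested.

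**Figure D2:**
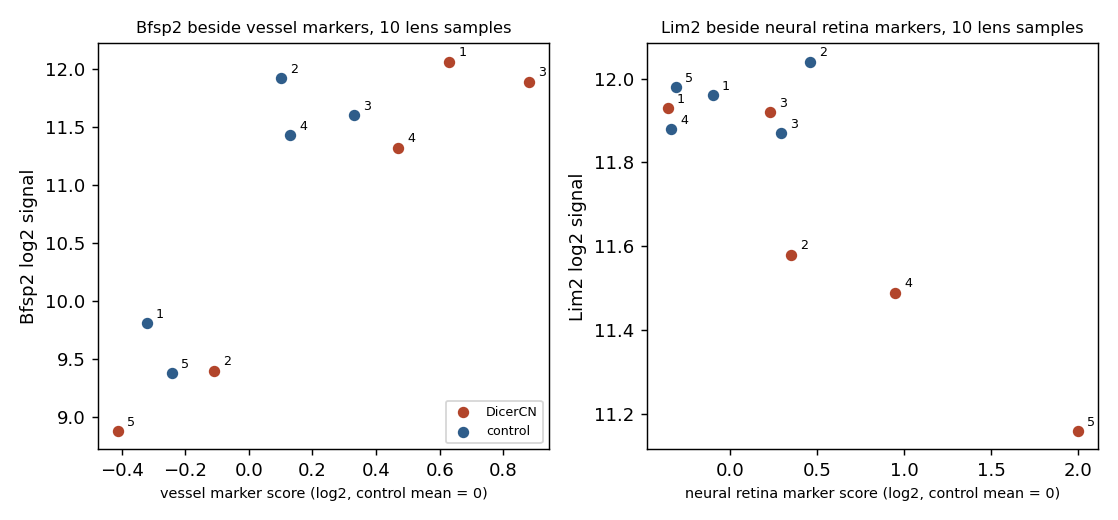
Left, Bfsp2 log2 signal against the vessel marker score, and right, Lim2 log2 signal against the neural retina marker score, for 5 DicerCN and 5 control lens samples numbered by replicate. The 4 lenses with Bfsp2 under 10 have vessel scores below 0, and DicerCN lens 5, with the highest retina score (2.004), has the lowest Lim2 (11.16).

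Lens by lens, the 9 genes did not all vary together. DicerCN lens 5 was below every control lens in 9 of 9 genes, lens 4 in 8 and lens 2 in 7. DicerCN lenses 1 and 3 were below every control in only 4, which were the genes that fell. The share of all genes that lay below every control in a single lens was not computed. These counts are therefore not read as a result about the 9 genes. Leaving out Bfsp2, the mean over the other 8 genes, relative to control lenses, was −0.22, −0.47, −0.36, −0.51 and −0.64 in DicerCN lenses 1 to 5, against −0.11 to 0.19 in control lenses. Of these 8 genes, 4 are the genes that fell, so this mean in part restates their calls. In DicerCN lens 1, Mip, Gja3, Lim2 and Bfsp1 stood at −0.02, 0.07, −0.01 and 0.03 relative to the control mean.

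Unequal change was read within arrays, as the log2 signal of 1 gene minus that of another in the same lens. Levels of different probes cannot be compared, so only the shift of such a difference between the groups is read. In 8 of the 36 pairs this difference did not overlap between the groups, and each of the 8 set Mip or Gja3 against Nrcam, Grifin, Lctl or Birc7. Mip stood higher relative to Grifin by 0.53 in DicerCN lenses (3.29 ± 0.14 in DicerCN and 2.76 ± 0.06 in control lenses, SD, n = 5 each). For Gja3 relative to Nrcam the shift was 0.58 (2.63 ± 0.19 in DicerCN and 2.05 ± 0.11 in control lenses). Among the 4 genes that fell, the differences overlapped between the groups in 6 of 6 pairs, which does not show that the genes fell equally, given the low signals of Lctl and Birc7. These pairs were not tested. The 4 genes that fell already had no overlap between the groups, and Mip and Gja3 shifted little. The 8 pairs therefore largely restate the calls, and nothing was computed for pairs of other genes. Whether the high array signals of Mip and Gja3 understate a fall was not tested either.

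From embryo to embryo, after the mean of each group was removed, Mip, Gja3 and Lim2 rose and fell with each other. Over 10 arrays, Pearson r was 0.98 for Mip and Gja3 (Spearman rho 0.89), 0.94 for Mip and Lim2 (rho 0.95) and 0.91 for Gja3 and Lim2 (rho 0.92). Without the 2 arrays farthest from the median of the first gene, r was 0.96, 0.85 and 0.79. Bfsp1 and Grifin varied with Mip, Gja3 and Lim2 less closely, with r of 0.66 to 0.76, and 0.61 to 0.75 without the 2 farthest arrays. With each other Bfsp1 and Grifin had r of 0.76 (rho 0.77), and 0.77 without those arrays. Birc7 and Lctl formed another close pair, with r of 0.85 (rho 0.68), and 0.66 without the 2 farthest arrays. Nrcam followed none of the others closely, its highest r being 0.43, with Gja3. Without the 2 farthest arrays that r was 0.21, while r of Nrcam with Grifin, 0.12 over all 10 arrays, was 0.59. Mip, Gja3 and Lim2 were lower where retina markers were higher (r = −0.85, −0.84 and −0.83, rho = −0.65, −0.79 and −0.66, over 10 arrays). Without the 2 arrays of most extreme retina score these values were −0.60, −0.64 and −0.56. For the other 5 genes r with the retina score over all 10 arrays was −0.54 for Bfsp1, −0.54 for Grifin, −0.37 for Nrcam, −0.29 for Lctl and −0.15 for Birc7. Retina was not the only list that moved with these genes. The red cell score had r of 0.67 with Birc7, 0.65 with Bfsp1, 0.60 with Grifin and 0.55 with Lctl. Without the 2 arrays of most extreme red cell score these were 0.63, 0.69, 0.54 and 0.72. With Mip, Gja3, Lim2 and Nrcam the red cell score had r of 0.21, 0.34, 0.33 and 0.21. Lim2 had r of 0.71 with the vessel score, and Nrcam −0.52 with the macrophage score. No fit used the red cell score as a covariate. All these points share their RNA sample, array and scaling, and Bfsp2 was left out because its values fell into 2 ranges. The part of retina RNA in the lower Mip, Gja3 and Lim2 of DicerCN lenses 4 and 5 was not tested.

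**Figure D3:**
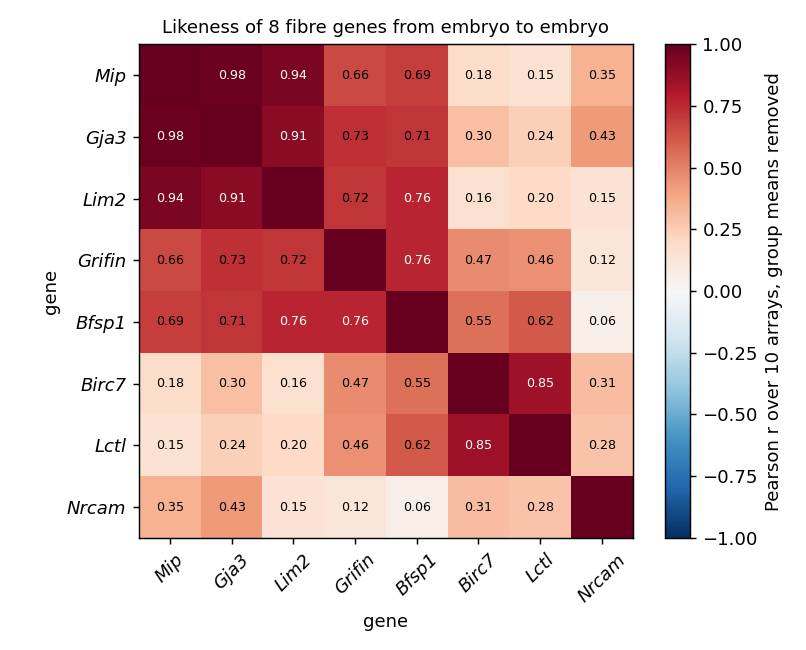
Pearson r between 8 of the fibre genes over 10 arrays after the mean of each group was removed, shown as colour and number in each cell, with genes on both axes. Mip, Gja3 and Lim2 form a block with r of 0.91 to 0.98, and Bfsp1 and Grifin have r of 0.66 to 0.76 with them. Birc7 and Lctl form a pair with r of 0.85.

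The genes most like each of the 4 that fell, by the same measure over 10 arrays, were Naa15 for Nrcam (r = 0.97), Dnajc14 for Grifin (r = 0.96), Plaur for Lctl (r = 0.95) and Abcf2 for Birc7 (r = 0.96). Next came Canx and Ptcd3 for Nrcam (r = 0.96 each), Dnase1l1 and Plekhs1 for Grifin (r = 0.95 each), Dgki and Ttc39b for Lctl (r = 0.91 and 0.89), and Plaur and Ccbe1 for Birc7 (r = 0.92 and 0.88). None of these genes passed the test between the groups. They were picked for the highest r among all genes over only 10 arrays. An r this high can arise from such picking alone, so they are not read as partners of the 4 genes.

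Other fibre genes were read from 4 wider lists: junction and channel proteins of the membrane, the cytoskeleton, fibre differentiation with organelle loss, and regulators of fibre genes. Of their 109 measured genes, 5 rose and 8 fell, against 2.56% and 3.97% of all genes. Of 23 fibre differentiation genes, 0 rose and 5 fell, and the median change was −0.20 against −0.0014 over all genes. Means were lower in 15 of the 23 and higher in 8, with changes from −1.04 to 1.38. Hopx, a homeodomain protein without DNA binding of its own, fell by 0.80 (SE 0.15, limma adjusted p = 0.00657). Tdrd7, an RNA granule protein whose loss causes cataract, fell by 0.52 (SE 0.10, adjusted p = 0.0112). Dnase2b, the nuclease that degrades fibre DNA, had log2 signals of 6.36, 5.67, 6.49, 5.52 and 5.14 in DicerCN lenses 1 to 5, against 7.26, 7.45, 6.76, 6.53 and 6.36 in control lenses 1 to 5. The groups overlapped, since DicerCN lens 3 was above control lens 5. Dnase2b fell by 1.04 (SE 0.27, adjusted p = 0.0391). In all 5 DicerCN lenses Hopx and Dnase2b lay below the array medians, where array signals can understate a fold. Cdkn1c, a cyclin-dependent kinase inhibitor of cells leaving the cycle, fell by 0.46, and the Wnt receptor gene Fzd3 by 0.40. The calls of Dnase2b, Cdkn1c and Fzd3 were lost in 10, 14 and 7 of 22 alternatives, and those of Hopx and Tdrd7 in 2, adjustment for the macrophage and for the pigment epithelium score. Under these 2 the change was −0.77 and −0.77 for Hopx, and −0.60 and −0.38 for Tdrd7.

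The cytoskeleton list had 2 genes that rose and 3 that fell among 37, with a median change of 0.11. Add2, an adducin that caps actin and joins it to spectrin, was at 7.59, 7.85, 7.50, 7.36 and 7.51 in DicerCN lenses 1 to 5 and at 8.78, 8.69, 8.63, 8.53 and 8.55 in control lenses 1 to 5. It was parted between the groups by 0.69. Add2 fell by 1.07 (SE 0.09, limma adjusted p = 9.88e-05), with its call held in 22 of 22 alternatives. Sptbn1, a beta spectrin of the same membrane skeleton, fell by 0.30 (SE 0.08, adjusted p = 0.0383), a call lost in 15 of 22. Tpm2, a tropomyosin of muscle and other cells, fell by 1.20 (SE 0.24, adjusted p = 0.0111), and by 0.91 without control lens 4, the lens with the high muscle score. Adjusted for the pigment epithelium score, its call was lost at a change of −1.25 (adjusted p = 0.0802). Msn, the membrane and actin linker moesin, rose by 0.55, and Myh9, a nonmuscle myosin, by 0.35, in calls lost in 8 and 13 of 22. Vim, the vimentin of both lens epithelium and fibres, stood at 0.03 (SE 0.08, adjusted p = 0.888), and its sign turned in 3 of 22. Tmod1, which caps the slow-growing end of actin filaments, stood at 0.36 (SE 0.19, adjusted p = 0.363). Averaging its 2 probe sets gave 0.14, and leaving out either DicerCN lens 3 or control lens 2 gave 0.21.

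Among 32 junction and channel genes, 2 rose and 0 fell, with a median change of 0.05. Pmp22, a myelin protein of the same tetraspan family as Lim2, had log2 signals of 12.13, 11.81, 11.94, 11.65 and 11.42 in DicerCN lenses 1 to 5, against 11.02, 10.70, 11.16, 10.84 and 10.82 in control lenses 1 to 5. Every DicerCN lens was above every control. Pmp22 rose by 0.88 (SE 0.13, limma adjusted p = 0.00173). Epha2, an Eph receptor needed for regular fibre packing, rose by 0.46 (SE 0.10, adjusted p = 0.0161), and adjustment for the macrophage score ended both calls at changes of 0.71 and 0.41 (adjusted p = 0.0659 and 0.200). Cdh2, the N-cadherin of fibre junctions, stood at −0.17 (SE 0.08, adjusted p = 0.276). Aqp1 and Aqp5, water channels of lens epithelium and of lens, stood at 0.27 and 0.03, and 0 of 11 aquaporins other than Mip passed the test. Many of the 11 had signals below the array medians in all lenses.

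**Figure D4:**
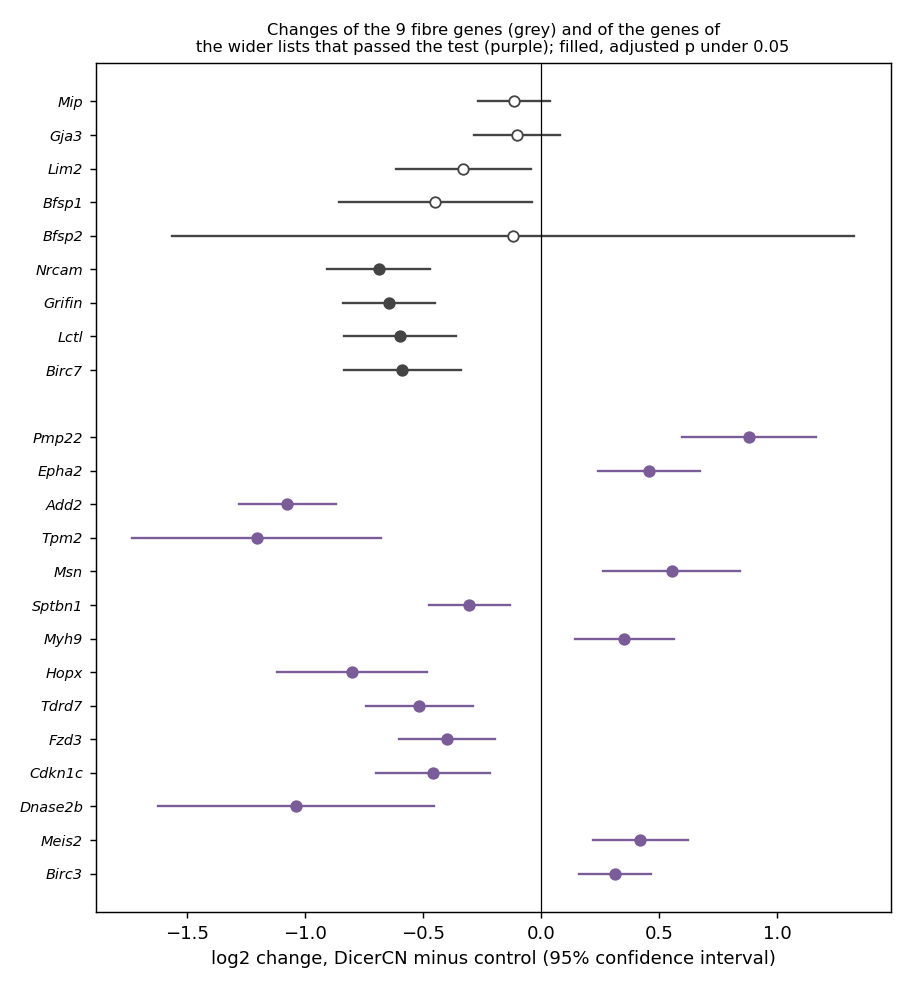
Log2 change, DicerCN minus control, with its 95% confidence interval (x axis) for the 9 fibre genes in grey and for the genes of the wider lists and families that passed the test in purple, 5 lens samples per group. Filled points passed the test: Nrcam, Grifin, Lctl and Birc7 lie between −0.69 and −0.59, and Bfsp2 has the widest interval, from −1.56 to 1.33.

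Among 17 regulators of fibre genes, 1 rose and 0 fell, with a median change of −0.04. Meis2, a homeodomain activator of Pax6 in lens ectoderm, rose by 0.42 (SE 0.09, limma adjusted p = 0.0166), a call lost in the same 2 alternatives at changes of 0.37 and 0.48. Pitx3, the gene mutated in aphakia mice, stood at −0.40 (SE 0.12, adjusted p = 0.0611) and passed in 4 of 22 alternatives, among them array weights (adjusted p = 0.0362) and the filter on dim genes (adjusted p = 0.0497). Sox1, an activator of gamma crystallin genes, stood at −0.36 (SE 0.12, adjusted p = 0.1002). Maf, Prox1 and Hsf4, activators of crystallin and late fibre genes, stood at −0.21, −0.16 and −0.14, with adjusted p of 0.411, 0.542 and 0.628. The last 3 changes turned above 0 with the pigment epithelium score as a covariate (0.05, 0.07 and 0.11).

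In the family of Birc7, 1 of 6 genes rose and 0 fell. That gene was Birc3, by 0.31 (SE 0.07, limma adjusted p = 0.0189), a call lost in 5 of 22 alternatives. Its signals were low, from 5.80 to 6.32, below the array medians in all lenses. Xiap, a direct caspase inhibitor, stood at 0.17 (adjusted p = 0.450), and Birc5, survivin of dividing cells, at −0.0070 (adjusted p = 0.988), with its sign turned in 8 of 22. Of 8 galectins, the family of Grifin, 0 passed the test, and their changes ran from −0.26 to 0.23. Some of these galectins also lay below the array medians in all lenses.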

How the data were processed

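RNA was measured on 10 Affymetrix whole-transcript arrays from 100 ng of total RNA each, per the labels' protocols, and the submitters' processing notes name GCOS. The authors deposited log2 signals for 35557 probe sets. The log base is read from the values (1.91 to 15.2), and the summary and normalization methods are not given in the sources used here. No 2 arrays were identical (correlations 0.977 to 0.990), and their number limits the precision (median SE 0.0986). Of the probe sets, 21789 had 1 symbol in the platform annotation, 1621 several and 12147 none, and only the first kind was used. For 999 genes with several probe sets the one with the highest mean was taken, which left 19938 genes.

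The groups were tested in R 4.3.3 by lmFit and eBayes of limma 3.58.1, 2-sided, with Benjamini-Hochberg adjustment over all genes, and single genes by exact 2-sided permutation. Changes are DicerCN minus control. The fit was tested on simulated data. The members and lists were chosen with earlier results of these data known. Named genes are the members, the genes of each list that passed (at most 6 by p), a preset group of fibre, regulator and family genes, Dicer1 and the 3 genes most like each member that fell (those most like the mean of the members are not given, since Bfsp2 sets much of its spread). Alternatives were a replicate block, quantile normalization, a filter on dim genes, the mean of probe sets, array weights, a trended robust fit, arrays left out and marker scores as covariates. Replicate numbers did not pair the samples. The labels describe independent embryos.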

Additional observations from a re-analysis of the deposited data

How the results depend on the processing

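The fit was repeated under 22 alternatives, 10 of which left out 1 array each. Of the 9 members, 2 fell (Grifin and Bfsp2) when adjusted for the macrophage score, 5 for the vessel score (Lim2 added), and the same 4 under every other alternative. Bfsp2 had 2 signal ranges in both groups and stood at −0.12 without a covariate (limma adjusted p = 0.956). Its call with the macrophage score is therefore not read as a fall. None of the 9 rose under any of the 22. The 1303 genes that differed became 276 with the macrophage score and 519 with the pigment epithelium score, which was added after seeing the data, as was the vessel score, and 784 to 1295 without 1 array (784 without control replicate 1, 865 without control replicate 2). The 13 genes of the wider lists that differed became 23 with array weights, 3 with the macrophage and 4 with the pigment epithelium score, and 8 to 14 without 1 array (8 without control replicate 5). With the replicate number as a block, 1100 genes, 4 members and 13 genes of the wider lists differed. Same-numbered arrays had correlations of deviations from −0.088 to 0.19, and 2 of 10 arrays correlated best with their own number, so the numbers did not pair the samples. The block ended the calls of Sptbn1, Myh9 and Birc3 (adjusted p = 0.0764, 0.0670 and 0.0645).

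Several changes that did not pass the test turned sign. Bfsp2 went to 0.0621 with array weights, 0.49 without control replicate 4 and DicerCN replicate 5, and 0.34 with the retina score, and ran from −0.48 to 0.34 without 1 array. After quantile normalization Gja3 was at 0.0204 and Birc5 at 0.0126. Birc5 was at 0.0110 with array weights, 0.136 with the macrophage and 0.0609 with the vessel score, and −0.0877 to 0.0727 without 1 array. Gja1 went to −0.0499, −0.113 and −0.382 with the retina, macrophage and pigment epithelium scores, Vim to −0.000536 and −0.0201 with the last 2, and Hsf4 to 0.00500 and 0.108 with the retina and pigment epithelium scores. Maf and Prox1 went to 0.0462 and 0.0733 with the pigment epithelium score. Without 1 array Vim ran from −0.0170 to 0.0696 and Aqp5 from −0.0622 to 0.0723. The causes were not tested.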
